A study of Mus musculus with 6 samples.

Results

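Inter-LAD stretches of 100 to 500 kb are pieces of chromosomes 1 to 19 that lay outside the lamina-associated domains (LADs) of 3 DamID maps at once. They were found by joining the deposited LAD lists of the maps and keeping every uninterrupted piece of sequence in no list that was at least 100 kb and under 500 kb long. There were 700 of them among 1543 stretches in no LAD. They held 174 Mb, which was 7.21% of the length of these chromosomes and 23.5% of the sequence outside LADs. The other stretches were 414 of 500 kb or more (543 Mb), 398 gaps of 25 to 100 kb with fragments over at least 50% of their length (23.2 Mb), 1 such gap without them and 30 slivers under 25 kb. The LAD lists were made from the lamina signal, so the 700 stretches were chosen by measured signal. A low signal in them follows from that choice and is given as a description with no test.

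The nuclear lamina is a mesh of lamin filaments under the inner nuclear membrane. LADs are long, mostly gene-poor and silent domains that touch it, and the sequence between them, called inter-LAD, is gene-rich, more often transcribed and held away from the nuclear edge. A short inter-LAD stretch can be pictured as a place where the chromosome leaves the lamina for a short way and returns to it. The stretches here come from joined lists, and in a single map the gap was often wider. Alternative splicing of Lmna yields lamins A and C, which differ in their tails. Lamin B1 comes from a gene of its own, Lmnb1, and a lipid group anchors it in the membrane.

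The maps came from mouse embryonic fibroblasts of strain C57BL/6, labelled wild type, in which 1 lamin was targeted by lentiviral shRNA before puromycin selection. The LmnA RNAi map and the LmnC RNAi map were each made from a Dam-LmnB1 and a Dam-only library, and the LmnB1 RNAi map from a Dam-LmnA and a Dam-only library, all brought in by lentivirus. Dam is a bacterial enzyme that methylates GATC sites, so a fusion of Dam to a lamin marks sequence near the lamina, and Dam alone gives the background. There were 6 libraries, 1 per group, with no replicates and no map of cells without shRNA analysed here. In the protocol, shRNA is given for LmnA and LmnC and the fusion is Dam-Lamin B1; the LmnB1 target and the Dam-LmnA fusion come from the description and title labels. The depletion of each lamin and the identity of the cells could not be checked, because RNA and protein were not measured. The maps of LmnA RNAi and of LmnC RNAi have the same fusion; in any comparison with the LmnB1 RNAi map the targeted lamin and the fusion cannot be told apart.

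The unit is the log2 ratio of fusion over Dam-only reads per GATC fragment, averaged over a stretch with each fragment weighted by its length. A stretch held a median of 522.5 fragments (162 to 1312), and 410422 of 5972542 fragments lay in the 700 stretches. The error of a single stretch is the standard error (SE) over its fragments, with a median of 0.20 after LmnA RNAi, 0.22 with LmnC targeted and 0.20 with LmnB1 targeted. It describes variation along the sequence within 1 pair of libraries, not between cultures. The total reads of the libraries are unknown, because ratios were deposited.

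Stretches of this size occurred on every autosome. Their median length was 224 kb (interquartile range 151 to 334 kb), and the shorter ones were the more common. There were 302 from 100 to 200 kb, 185 from 200 to 300 kb, 110 from 300 to 400 kb and 103 from 400 to 500 kb. Chromosome 2 held the most, with 65 stretches over 9.24% of its length, and chromosome 19, the shortest autosome, the fewest, with 17 over 7.33%. Per 10 Mb there were between 2.10 on chromosome 16 and 3.64 on chromosome 2. Chromosome 11 is rich in long inter-LAD sequence, with 36.3% of its length in stretches of 500 kb or more, but had an ordinary 3.03 of the shorter stretches per 10 Mb. When each chromosome was cut into 5 equal parts from its centromeric end, the last part held 24.6% of the stretches on 20.6% of the fragment length (3.52 per 10 Mb). The other parts held 2.63 to 3.01 per 10 Mb.

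Inside these stretches lamina signal was low in every map and close to that of much longer inter-LAD sequence. After LmnA RNAi the median log2 ratio was -1.75 (interquartile range -2.37 to -1.18), with a lowest value of -4.06 and a highest of 0.21. It was -3.05 after LmnC RNAi (-3.55 to -2.45), running from -5.17 to -0.69. After LmnB1 RNAi it was -2.12 (-2.57 to -1.67), running from -4.21 to -0.26. The signal was below 0 in 697 of 700 stretches after LmnA RNAi, where 34.5% of autosomal 200 kb windows were below 0, and in all 700 after LmnC RNAi (background 50%) and LmnB1 RNAi (background 43.8%). The maps carry different offsets, so 0 is no common reference: the median 200 kb window lay at 1.16, 0.00 and 0.46. All 700 stretches lay below that median in each map, by a median of 2.91, 3.04 and 2.58, where 50% of windows do so by construction.

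Inter-LAD stretches of 500 kb or more had medians of -2.08, -3.18 and -2.20 in the LmnA, LmnC and LmnB1 RNAi maps, and gaps of 25 to 100 kb had -1.98, -3.07 and -2.34. These medians lay far closer to each other than to those of sequence in LADs. The spread differed more. The standard deviation over regions after LmnC RNAi was 0.52 in the long stretches, 0.80 in those of 100 to 500 kb and 0.96 in the short gaps, and shorter regions also average fewer fragments. Stretches of 100 to 500 kb that lay in LADs of all maps stood on the other side of the scale, at 2.04, 1.06 and 1.30.

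**Figure D1:**
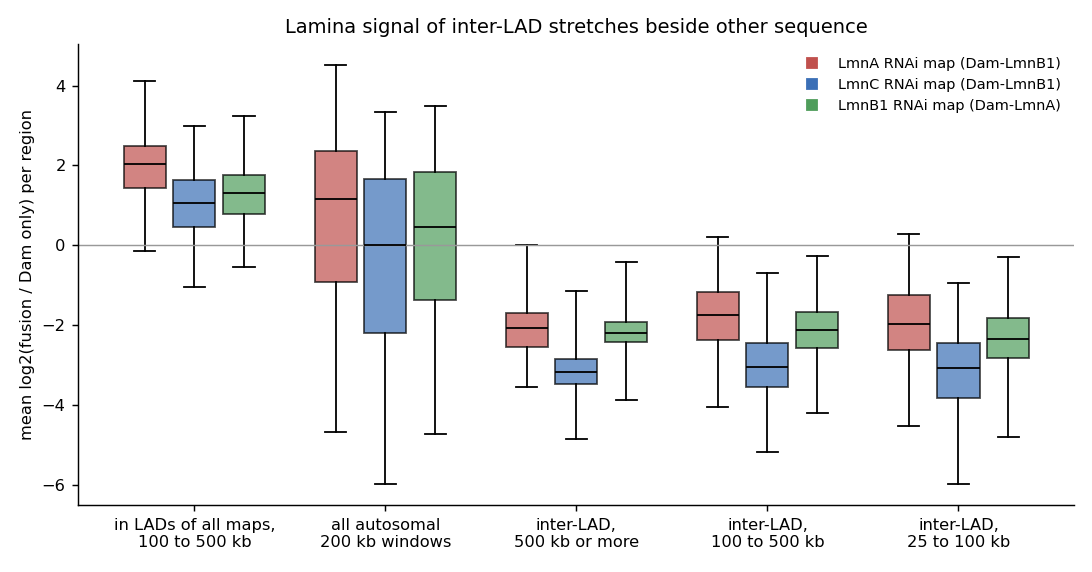
Mean log2 ratio of fusion over Dam-only reads per region (vertical axis) for 5 kinds of sequence (horizontal axis) in 3 maps; lines in the boxes are medians, boxes the interquartile range and whiskers the lowest and highest region. The stretches of 100 to 500 kb have medians of -1.75, -3.05 and -2.12, near those of stretches of 500 kb or more and far below sequence in LADs.

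Among fragments with reads in a single library, those of the Dam-only library outnumbered those of the fusion library in these stretches. They made up 15.5% against 7.11% of fragments after LmnA RNAi, 23.0% against 4.02% with LmnC targeted and 19.4% against 5.16% with LmnB1 targeted. In reads, these fragments held 4.74, 20.1 and 9.71 Dam-only reads for each fusion read, where the 200 kb windows held 0.491, 1.48 and 0.948. Reads of such fragments can be recovered from the deposited values and came out whole within 0.02 for all values up to 100 reads, with a median of 1, 2 and 2 reads a fragment. Without these single-library fragments the median signal of the stretches was -1.19, -1.53 and -1.15, so the signal stayed low, but the distance between the LmnA RNAi and LmnB1 RNAi maps closed.

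Length within the class went with signal weakly. Spearman's rho of length with signal was -0.13 after LmnA RNAi, -0.07 with LmnC targeted and -0.03 with LmnB1 targeted over 700 stretches, which share libraries. From stretches of 100 to 200 kb to those of 400 to 500 kb, the median moved from -1.67 to -1.94 after LmnA RNAi, from -3.03 to -3.05 with LmnC targeted and from -2.09 to -2.16 with LmnB1 targeted. The standard deviation narrowed from 0.86 to 0.69, from 0.85 to 0.61 and from 0.71 to 0.53.

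At the length limits the few stretches listed on either side scattered widely and had overlapping values. Just inside 100 kb, a stretch of 100.2 kb on chromosome 11 from 66827815 to 66928023 had -0.61 ± 0.25, -1.38 ± 0.28 and -0.88 ± 0.22 (SE) in the LmnA, LmnC and LmnB1 RNAi maps. One of 100.4 kb on chromosome 5 from 43885995 to 43986364 had -0.01 ± 0.28, -2.19 ± 0.26 and -1.31 ± 0.24. The third, on chromosome 5 from 107024624 to 107125170, had -1.78 ± 0.26, -3.35 ± 0.30 and -3.01 ± 0.30. Just outside, the 3 longest gaps under the limit (98.4 to 99.7 kb) had -0.26, -2.62 and -2.86 after LmnA RNAi, and -1.46, -3.74 and -2.50 after LmnC RNAi. After LmnB1 RNAi they had -0.84, -2.63 and -1.92.

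At the upper limit the longest stretch measured 496.7 kb, on chromosome 15 from 97488782 to 97985516, with -1.66 ± 0.15, -2.53 ± 0.16 and -1.97 ± 0.14. The next, of 496.7 kb on chromosome 4 from 151318931 to 151815658, had -3.03 ± 0.15, -3.43 ± 0.18 and -2.17 ± 0.13. The third, of 496.2 kb on chromosome 6 from 120731967 to 121228142, had -2.02 ± 0.14, -2.97 ± 0.15 and -2.32 ± 0.13. Stretches of 500.4, 501.1 and 502.8 kb, just too long, had -3.19, -2.55 and -0.71 after LmnA RNAi, and -3.98, -3.42 and -2.13 after LmnC RNAi. After LmnB1 RNAi they had -2.91, -2.51 and -1.35. Values on both sides of each limit overlapped, over too few stretches to compare the sides.

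The 3 stretches with the lowest signal after LmnA RNAi were short, and they were low in the other maps too. On chromosome 11 from 16648752 to 16770999 (122.2 kb) the log2 ratio was -4.06 ± 0.31 after LmnA RNAi, -4.58 ± 0.29 with LmnC targeted and -4.10 ± 0.27 with LmnB1 targeted. On chromosome 3 from 86874878 to 86980024 (105.1 kb) it was -3.92 ± 0.37, -4.28 ± 0.34 and -4.21 ± 0.38. LADs of the 3 maps closed in on this stretch at nearly the same places, leaving gaps of 105.6, 110.4 and 115.6 kb. The third lowest after LmnA RNAi, on chromosome 1 from 176755480 to 176857303, had -3.92 ± 0.34, -4.39 ± 0.36 and -3.33 ± 0.31.

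After LmnC RNAi the lowest values were found elsewhere. A stretch of 268.2 kb on chromosome 7 from 121160875 to 121429043 had -5.17 ± 0.28, against -3.50 ± 0.23 after LmnA RNAi and -3.53 ± 0.23 after LmnB1 RNAi. One on chromosome 5 from 90624215 to 90798346 had -4.99 ± 0.32, and one on chromosome 11 from 55190826 to 55332606 had -4.95 ± 0.34. All 3 were low in the other maps as well, at -3.24 or less. After LmnB1 RNAi the third lowest, on chromosome 1 from 16547837 to 16681767, had -4.01 ± 0.32 and was at -2.76 ± 0.28 after LmnA RNAi.

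Only 3 stretches had a signal above 0 in any map, and all of them were above it after LmnA RNAi. The highest was on chromosome 2 from 150579006 to 150836945 (257.9 kb), with 0.21 ± 0.21 after LmnA RNAi, -0.78 ± 0.17 with LmnC targeted and -0.83 ± 0.16 with LmnB1 targeted. The second, on chromosome 1 from 66745101 to 66913367 (168.3 kb), had 0.17 ± 0.26 after LmnA RNAi and was at -2.42 ± 0.26 and -1.21 ± 0.17 in the others. The third, on chromosome 12 from 46602419 to 46749326 (146.9 kb), had 0.04 ± 0.26, -1.24 ± 0.24 and -0.40 ± 0.22. Each of these lies within about 1 SE of 0, and without single-library fragments they fell to -0.26, -0.44 and -0.12. The last of them was bordered by LADs throughout the 1 Mb on both sides, as was the second (100% in LADs of any map).

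Stretches with a high signal after LmnC and LmnB1 RNAi overlapped in part. One on chromosome 11 from 90921309 to 91096774 (175.5 kb) was the highest in both, at -0.69 ± 0.25 and -0.26 ± 0.19, with -0.22 ± 0.25 after LmnA RNAi. One on chromosome 9 from 98156688 to 98337410 had -0.94 ± 0.24, -1.05 ± 0.18 and -0.79 ± 0.18 in the LmnA, LmnC and LmnB1 RNAi maps. A longer one on chromosome 14 from 101450518 to 101794235 (343.7 kb) reached -0.34 ± 0.15 after LmnB1 RNAi but -2.03 ± 0.18 after LmnC RNAi. It was bounded by LADs of the LmnA RNAi map alone: the gaps between LADs around it measured 343.7 kb after LmnA RNAi and 2979.3 and 3052.7 kb in the other maps.

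The signal fell to near its inter-LAD level within 10 kb of a border and then changed little beside that step. Over 794 ends of stretches of 200 to 500 kb, the mean log2 ratio after LmnA RNAi was 0.54 ± 0.05 (SE over ends) in the last 10 kb of the LAD and -2.01 ± 0.05 in the first 10 kb of the stretch. After LmnC RNAi these were -0.94 ± 0.06 and -2.90 ± 0.06, and after LmnB1 RNAi -0.29 ± 0.05 and -2.15 ± 0.05. Borders and LADs were called on this signal, so the step and the levels on both sides of it are set by the choice and are given as a description. From 90 to 100 kb inside the stretch the means were -1.81 ± 0.06, -3.01 ± 0.07 and -2.02 ± 0.06, near those of the first 10 kb. In between, some bins moved by more than the SE. After LmnA RNAi the mean was up to -1.81 ± 0.06 at 30 to 40 kb, and after LmnC RNAi it was down to -3.13 ± 0.06 at 20 to 30 kb. On the LAD side the signal went on rising away from the border, to 1.29 ± 0.06, 0.25 ± 0.06 and 0.64 ± 0.06 at 90 to 100 kb.

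Borders of stretches of 500 kb or more had the same course. From 90 to 100 kb inside them the means were -1.88 ± 0.07, -3.04 ± 0.06 and -2.10 ± 0.06 over 825 ends. In the last 10 kb of the LAD they were 0.31 ± 0.05, -1.05 ± 0.05 and -0.32 ± 0.05, where LADs next to the shorter stretches had 0.54 ± 0.05 after LmnA RNAi.

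**Figure D2:**
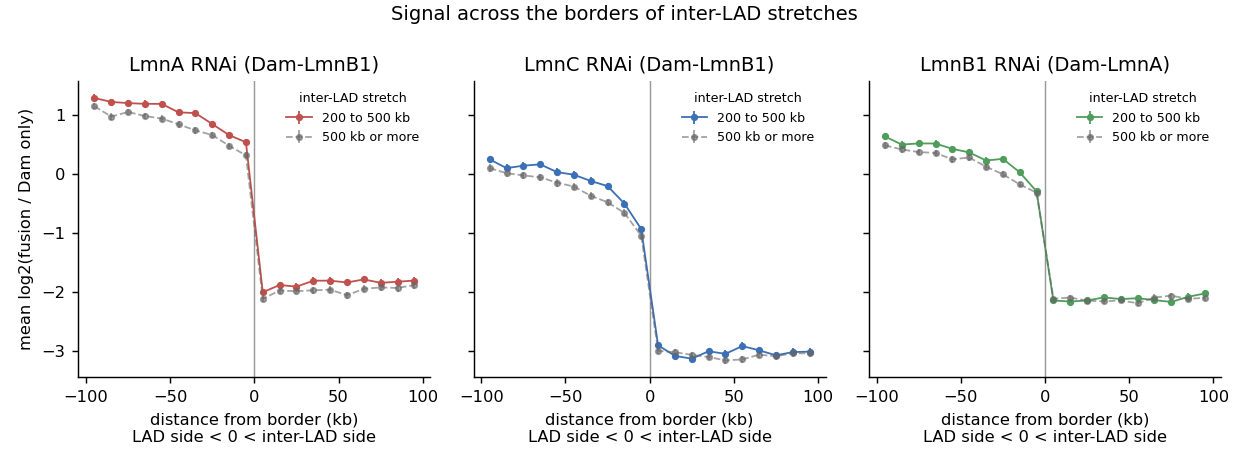
Mean log2 ratio (vertical axis) in 10 kb bins against distance from the border in kb (horizontal axis, LAD side below 0) in the 3 maps; coloured points are borders of stretches of 200 to 500 kb, grey points those of stretches of 500 kb or more, and bars the SE over ends. The signal drops at the border, to -2.01, -2.90 and -2.15 in the first 10 kb of the shorter stretches, and changes little from there on beside this drop.

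The middle of a stretch had about the same signal as its ends. Among the 398 stretches of 200 kb or more, the median of the middle 50 kb minus the mean of the outer 50 kb was 0.03 after LmnA RNAi, -0.04 with LmnC targeted and -0.03 with LmnB1 targeted. The middle was the lower in 191, 204 and 208 of them. Single stretches varied far more than this median, with interquartile ranges of the difference from -0.71 to 0.78, -0.75 to 0.69 and -0.74 to 0.77. In 131 stretches the middle was lower in every map, and in 33 it was higher by more than 1 in every map.

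Patches of LAD-like signal inside the stretches were rare, which follows in part from the choice of sequence outside all LADs. Of 8358 windows of 20 kb inside them, 0.562% (47 windows in 30 stretches) lay above the median 200 kb window in all maps, against 42.2% of all autosomal 20 kb windows, those in LADs included. The share was 0.143% in the outermost 20 kb and 0.683% among the 5567 windows at least 40 kb from both ends; a high window next to an end could have been taken into the LAD, so the choice bears on this order. All deposited LADs are over 100 kb long, so no patch of this size is listed as a LAD by itself.

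The ends of the stretches were set mostly by LADs of the LmnA RNAi map. How much of the autosomes each list covers is not given here, so the shares below are not read as particular to these stretches. Of 1397 ends at a LAD (3 more were chromosome ends), the LmnA RNAi list had the innermost border at 795 (56.9%), the LmnB1 RNAi list at 340 (24.3%) and the LmnC RNAi list at 308 (22.0%), some of them shared. A border of the LmnA RNAi map lay within 10 kb of 75.8% of ends, against 42.9% and 43.5% of ends for the LmnC RNAi and LmnB1 RNAi maps. A border was more than 100 kb away at 5.73%, 31.6% and 31.9% of ends. All maps had a border within 10 kb at 259 ends (18.5%), and in 31 stretches (4.43%) at both ends. Those 31 had a median signal of -1.65, -3.02 and -1.97, near that of the other stretches (-1.75, -3.05 and -2.12).

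Seen in a single map, many of these places were wider gaps. The gap between LADs that held a stretch had a median of 259 kb after LmnA RNAi, 422 kb with LmnC targeted and 417 kb with LmnB1 targeted, or 1.02, 1.54 and 1.61 times the stretch. It reached 500 kb or more for 68 stretches after LmnA RNAi (9.71%), 288 with LmnC targeted (41.1%) and 281 with LmnB1 targeted (40.1%). In 332 stretches (47.4%) the gap was under 500 kb in every map. In another 187 (26.7%) it was under 500 kb after LmnA RNAi and 500 kb or more after both LmnC and LmnB1 RNAi, so these were short by the LADs of the LmnA RNAi map. The signal inside did not set the sets apart. The 332 had medians of -1.69, -2.98 and -2.08 in the LmnA, LmnC and LmnB1 RNAi maps, and the 187 had -1.78, -3.10 and -2.09. LADs of any map made up a median of 86.5% of the 1 Mb on both sides of the first set and 74.3% of the second. The sets were split by the width of gaps between LADs there, so this order follows in part from the split.

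**Figure D3:**
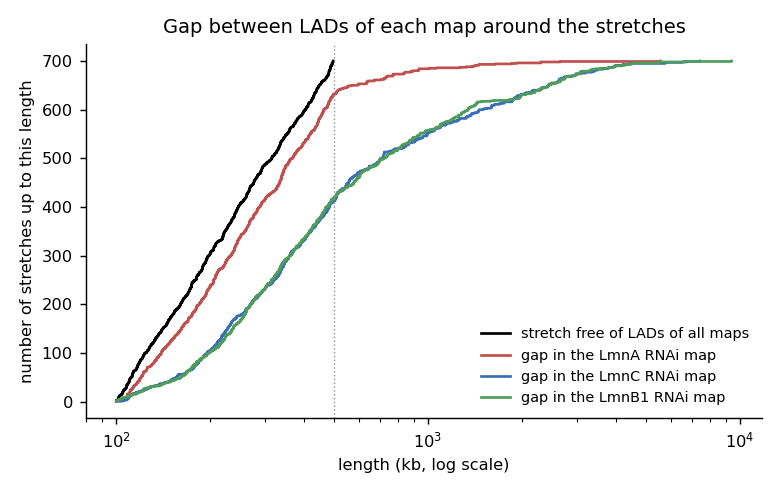
Number of the 700 stretches (vertical axis) up to a given length in kb (horizontal axis, log scale), for the stretch itself and for the gap between LADs that holds it in each map; a gap that holds several stretches counts for each, and the dotted line marks 500 kb. The LmnA RNAi gaps (median 259 kb) stay close to the stretches, and the LmnC and LmnB1 RNAi gaps (422 and 417 kb) run wider.

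A view in which a map did not take part in the choice came from stretches of 100 to 500 kb outside the LADs of the other two maps. With LmnC RNAi left out there were 708 such stretches, and 3.56% of their length lay in LADs called after LmnC RNAi, which took up 50% or more of 12 of them (1.69%). Their median signal after LmnC RNAi was -2.97, and 708 of 708 lay below the median window (background 50%). With LmnB1 RNAi left out, 5.33% of the length of 728 stretches was in its LADs, 30 (4.12%) were covered by 50% or more, the median signal was -1.99 and 726 lay below the median window. Left out of the choice, both maps thus showed low signal at nearly all of these stretches.

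The LmnA RNAi map stood apart in this view, though the cover of its LADs over the autosomes as a whole is not given beside it. Of 691 stretches outside the LADs of both other maps, its LADs covered 29.2% of the length, 50% or more of 189 (27.4%) and the whole of 91. The median signal after LmnA RNAi was -1.06 (interquartile range -1.91 to -0.26) over all 691, -1.76 in the 159 that no LmnA RNAi LAD touched and 0.08 in the 189. The 159 and the 189 were split by LADs called on this same signal, so their order follows from the split. Of all 691, 687 lay below the median window of that map. Across the 200 kb windows, fragments read in the fusion library alone held more reads than those read in the Dam-only library alone after LmnA RNAi (2801861 against 1374643), and fewer after LmnC RNAi (1769128 against 2626377). Their part in the wider LADs of the LmnA RNAi map was not tested.

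The LmnA RNAi and LmnC RNAi maps, which share the Dam-LmnB1 fusion, ask how lamina contact differs when one or the other splice product of Lmna is targeted. As deposited, the signal was higher after LmnA RNAi in 694 of 700 stretches, with a median difference of 1.21 (interquartile range 0.84 to 1.57). It was higher by more than 0.5 in 632 (90.3%), where 79.4% of 200 kb windows were, and lower by more than 0.5 in 1 (0.143%, background 0.15%). The LAD lists that chose the stretches come from the same signal, so nothing is read from the distance between these shares. A difference of the same sign ran over the whole map, with a median of 0.92 in the 200 kb windows. Centring subtracts the difference of the map medians, and it left these windows at a median difference of -0.24. With the median 200 kb window of each map set to 0, 138 stretches (19.7%, background 12.1%) were higher after LmnA RNAi and 110 (15.7%, background 31.6%) lower. Without single-library fragments, and without centring, 201 were higher (28.7%, background 20.6%) and 1 lower (background 0.0167%), with a median difference of 0.35.

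Among the stretches with the largest centred excess after LmnA RNAi over LmnC RNAi, the first was on chromosome 17 from 67468922 to 67622876 (154 kb). It had -0.45 ± 0.20 after LmnA RNAi against -3.68 ± 0.32 with LmnC targeted and -2.89 ± 0.23 with LmnB1 targeted (-0.57, -1.78 and -1.46 without single-library fragments). One on chromosome 3 from 159489675 to 159599436 (109.8 kb) had -1.51 ± 0.42 against -4.43 ± 0.34 and -3.62 ± 0.29, and it ran to the end of the chromosome, with a LAD on 1 side only. Both led the comparison with the LmnB1 RNAi map as well, with which the LmnA RNAi values are shared. The third was longer, on chromosome 2 from 48666426 to 49079183 (412.8 kb), with -0.61 ± 0.17, -3.37 ± 0.19 and -2.33 ± 0.15. Its gaps were alike in the 3 maps (433.3, 426.6 and 439.3 kb), so the signal inside differed while the LAD borders stayed near each other.

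In the other direction a stretch on chromosome 11 was alone. From 82576131 to 82731797 (155.7 kb) the log2 ratio was -2.62 ± 0.31 after LmnA RNAi, -1.27 ± 0.24 with LmnC targeted and -1.83 ± 0.25 with LmnB1 targeted, and -1.48, -0.88 and -0.78 without single-library fragments. As deposited, it was the only stretch more than 0.5 lower after LmnA RNAi, and also the only one more than 0.5 higher after LmnC than after LmnB1 RNAi. The next 2 were picked on centred differences of -1.45 and -1.36. As deposited they differed by only -0.28 and -0.20, and the ranges of 1 SE around the values overlapped. These were on chromosome 9 from 89963746 to 90171631 (-2.44 ± 0.20 against -2.15 ± 0.21) and on chromosome 13 from 75846747 to 76041270 (-3.28 ± 0.20 against -3.09 ± 0.21). Both lay in surroundings made up wholly of LADs.

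Set against the LmnB1 RNAi map, which differs in target and fusion, the LmnA RNAi signal was higher by a median of 0.33 (interquartile range -0.02 to 0.69). It was higher by more than 0.5 in 266 stretches (38.0%, background 48.6%) and lower in 38 (5.43%, background 5.16%). Centring turned this to 48 higher (6.86%, background 9.08%) and 288 lower (41.1%, background 32.4%). Without single-library fragments, 23 were higher (3.29%, background 14.1%) and 16 lower (2.29%, background 1.49%). The median difference was then -0.03, where the 200 kb windows had 0.19. The direction in these stretches thus changed with the setting, and why was not tested. Besides the stretches on chromosomes 17 and 3, a large excess after LmnA RNAi stood on chromosome 4 from 80497980 to 80607378 (-1.63 ± 0.31 against -3.54 ± 0.33).

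Deficits after LmnA RNAi were found on chromosome 11 from 81804634 to 82009768 (205.1 kb), at -3.38 ± 0.23 against -2.19 ± 0.22 after LmnB1 RNAi. Another lay on chromosome 5 from 107441009 to 107721144, at -3.01 ± 0.22 against -2.02 ± 0.18. The third was the stretch of 496.7 kb on chromosome 4 given with the longest. The LmnC RNAi values of these 3 (-3.51, -3.43 and -3.43) lay below those after LmnB1 RNAi as well. On chromosome 11 a LAD of 566.4 kb parts the stretch from 81804634 from the one from 82576131, in which the LmnC RNAi map was the highest of the 3 as deposited, but not without single-library fragments (-0.88 against -0.78 after LmnB1 RNAi).

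The LmnC RNAi signal was below the LmnB1 RNAi signal in 685 of 700 stretches as deposited, with a median difference of -0.88 (interquartile range -1.13 to -0.59). It was lower by more than 0.5 in 570 (81.4%, background 50.7%) and higher in 1 (0.143%, background 2.46%). After centring, 293 were lower (41.9%, background 22.2%) and 12 higher (1.71%, background 15.9%). Without single-library fragments, 135 were lower (19.3%, background 7.43%) and 0 higher (background 0.159%). As above, the choice of the stretches used these signals and nothing is read from the shares. Inter-LAD stretches of 500 kb or more were lower by more than 0.5 after LmnC RNAi in 97.1% as deposited and 55.8% after centring. In sequence in LADs of all maps the centred median difference had the other sign, 0.21. The median difference between LmnA and LmnC RNAi also kept its sign but was 0.04 after centring, and that between LmnA and LmnB1 RNAi changed sign.

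The largest deficits after LmnC RNAi were on chromosome 10 from 114660004 to 114910980 (251.0 kb), at -4.25 ± 0.24 against -2.29 ± 0.18 after LmnB1 RNAi, and on chromosome 13 from 17776861 to 17902451, at -4.74 ± 0.41 against -2.88 ± 0.30. The third was on chromosome 18 from 52615394 to 52843208, at -4.47 ± 0.26 against -2.70 ± 0.21. In these 3 the LmnA RNAi values were -2.43, -2.54 and -2.81, close to those after LmnB1 RNAi as deposited. After centring, LmnA minus LmnB1 RNAi was -0.85, -0.37 and -0.81 there, so the closeness held only with the offset of the maps left in. The largest excesses after the chromosome 11 stretch were picked on centred differences of 0.76 and 0.71. As deposited they were smaller, and the ranges of 1 SE overlapped. They were -1.22 ± 0.21 against -1.51 ± 0.27 on chromosome 2 from 11607301 to 11722782, and -1.78 ± 0.28 against -2.04 ± 0.28 on chromosome 11 from 12202058 to 12312703.

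**Figure D4:**
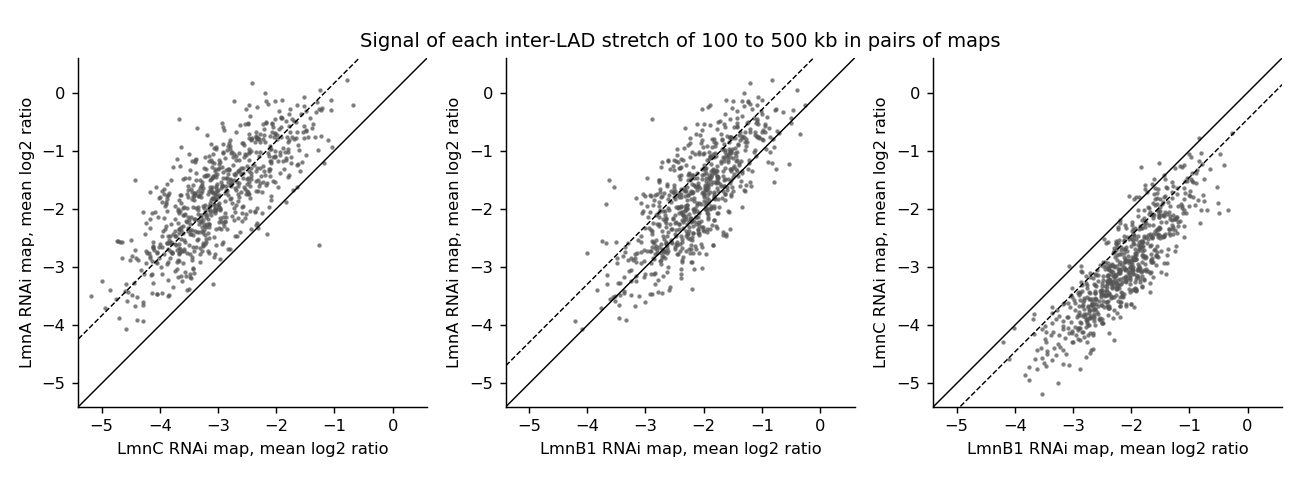
Mean log2 ratio of each of the 700 stretches (points) in one map against another, both axes on the log2 scale; the solid line marks equal values and the dashed line equal values after each map is centred on its median 200 kb window. Points lie above the solid line in the comparison of LmnA with LmnC RNAi (694 of 700) and below it in that of LmnC with LmnB1 RNAi (685 of 700).

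Stretches kept much of their order from map to map. Pearson's r across the 700 was 0.77 between LmnA and LmnC RNAi, 0.75 between LmnA and LmnB1 RNAi and 0.87 between LmnC and LmnB1 RNAi (Spearman's rho 0.76, 0.74 and 0.88). The stretches share base composition and fragment spacing in all maps, and regions are not replicates. Within a map, odd-numbered and even-numbered fragments of the same stretch gave r of 0.89, 0.85 and 0.82. The spread of the signal over stretches (SD 0.82, 0.80 and 0.66) was larger than the error estimated from these fragments (0.20, 0.23 and 0.21). For differences between maps the margin was narrower. The SD over stretches was 0.56 for LmnA minus LmnC RNAi against an error of 0.28, 0.54 against 0.27 for LmnA minus LmnB1 RNAi, and 0.40 against 0.28 for LmnC minus LmnB1 RNAi.

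The chromosome made little difference to the signal. The median over the stretches of a chromosome ran from -1.99 (chromosome 2) to -1.54 (chromosome 19) after LmnA RNAi, from -3.28 (chromosome 8) to -2.61 (chromosome 19) after LmnC RNAi and from -2.42 (chromosome 3) to -1.83 (chromosome 19) after LmnB1 RNAi. Chromosome 19 was the highest in each map. The median difference of LmnA minus LmnC RNAi was above 0 on every autosome, from 0.96 on chromosome 19 to 1.41 on chromosome 18, and that of LmnC minus LmnB1 RNAi below 0 on every autosome, from -1.07 on chromosome 10 to -0.69 on chromosome 7.

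The amount of LAD around the stretches went with their signal weakly at most. LADs of any map made up a median of 80.7% of the 1 Mb on both sides (interquartile range 66.2% to 94.1%), against 69.3% of the autosomes as a whole. The 1 Mb on each side starts at an end of the stretch, which is nearly always a LAD border by the choice. A share above that of the autosomes follows in part from this and is given as a description. The flanking LADs had a median length of 566 kb, counted over the joined lists, and 475 of 1397 (34.0%) were of 1 Mb or more. In the 175 stretches with the fewest LADs around them (22.0% to 66.0%), the median signal was -1.75, -3.04 and -2.10 in the LmnA, LmnC and LmnB1 RNAi maps. In the 174 with the most (94.2% to 100%), it was -1.63, -3.01 and -2.12. Stretches with the most LAD around them thus had about the same median signal as those with the least. Spearman's rho of this share with signal was 0.069, -0.008 and -0.021 in the LmnA, LmnC and LmnB1 RNAi maps. With the difference between maps it was 0.121 for LmnA minus LmnC RNAi, 0.132 for LmnA minus LmnB1 RNAi and 0.019 for LmnC minus LmnB1 RNAi.

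Many of the stretches had another of this class as a neighbour. Counting stretches outside LADs of at least 25 kb along each chromosome, 146 of the 700 had another of this class as the next one on both sides, 348 on 1 side and 206 on neither. The class made up much of what was counted: 700 stretches, beside 414 of 500 kb or more and 398 gaps of 25 to 100 kb. Such neighbours would thus be common in a random order too. No share for a random order was worked out, and nothing is read from these counts. The shortest LAD sequence between neighbouring stretches of this class was 101.4 kb, on chromosome 4 between stretches from 11406491 to 11669267 and from 11770662 to 12093545. This LAD was in the LmnB1 RNAi list alone, and in the other maps a gap of 724.5 kb (LmnA RNAi) or 704.3 kb (LmnC RNAi) ran across it. The 2 stretches had -0.77 ± 0.16 and -0.40 ± 0.16 after LmnA RNAi, -2.34 ± 0.19 and -2.45 ± 0.18 with LmnC targeted, and -1.53 ± 0.17 and -1.33 ± 0.14 with LmnB1 targeted, differences that are small beside the spread over all stretches (SD 0.82, 0.80 and 0.66).

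In the next pairs the LAD between belonged to the LmnA RNAi list. On chromosome 12, stretches from 100763475 to 100959924 and from 101061747 to 101222967 were separated by 101.8 kb. They had -0.43 ± 0.23 and -0.37 ± 0.19 after LmnA RNAi, and -1.93 ± 0.27 and -1.79 ± 0.20 after LmnC RNAi. Around both, the gap ran over 1324.1 kb with LmnC targeted and 1979.1 kb with LmnB1 targeted. On chromosome 8, stretches from 63689897 to 63862428 and from 63966101 to 64365668 lay 103.7 kb apart, with -1.99 ± 0.21 and -2.46 ± 0.17 after LmnA RNAi and -3.54 ± 0.27 and -3.85 ± 0.18 after LmnC RNAi.

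GATC sites, which the choice did not use, were spaced more widely in these stretches than in LADs. The mean fragment length was 420.7 bp in the stretches, 432.8 bp in gaps of 25 to 100 kb, 411.5 bp in inter-LAD sequence of 500 kb or more, 385.8 bp in sequence in LADs of all maps and 397.8 bp over the autosomes. It was longer in the stretches than in such LADs on 19 of 19 chromosomes, and longer than in the long inter-LAD stretches on 17 of 19, chromosomes 6 and 19 being the exceptions. The SD over chromosomes was 6.94 bp in the stretches and 7.0 bp in LADs of all maps. Of the 700 stretches, 578 (82.6%) had a mean fragment length above the autosomal mean, where 55.2% of 200 kb windows did, and single stretches ran from 345.8 to 549.8 bp. No test was run over regions, which are not replicates.

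**Figure D5:**
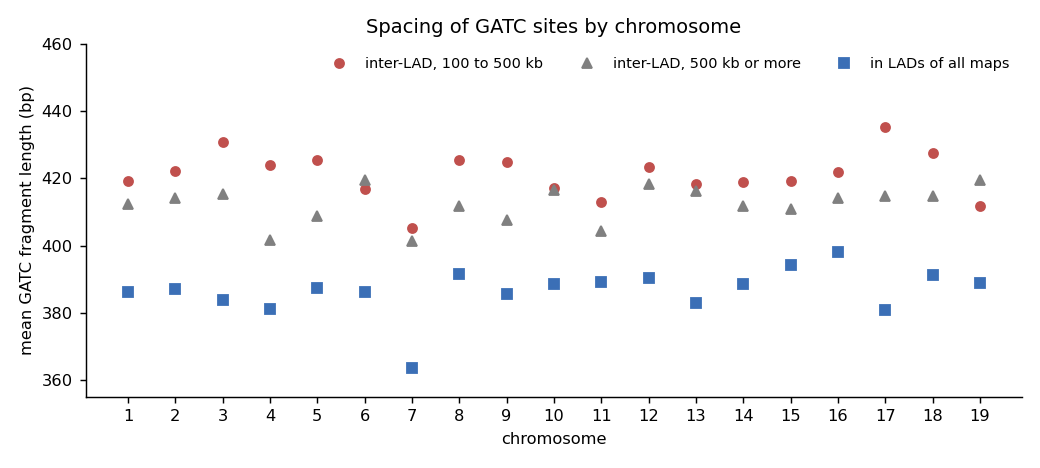
Mean length of GATC fragments in bp (vertical axis, which does not start at 0) on each autosome (horizontal axis) for the stretches of 100 to 500 kb, for inter-LAD stretches of 500 kb or more and for sequence in LADs of all maps. The circles (420.7 bp over all autosomes) lie above the squares (385.8 bp) on all 19 chromosomes.

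The spacing changed at the border. Around stretches of 200 to 500 kb, the mean fragment length was 386.5 bp in the last 10 kb of the LAD and 418.3 bp in the first 10 kb of the stretch, and from 90 to 100 kb away it was 390.4 bp on the LAD side and 418.6 bp on the other. Fragment length also bears on how a fragment is read. In the stretches, fragments read in both libraries with unequal counts had a median length of 579, 580 and 566 bp in the LmnA, LmnC and LmnB1 RNAi maps, those read in 1 library 168, 167 and 156 bp, and those at the constant of the map, which had equal counts or no reads in both, 99, 87 and 94 bp. Mean fragment length and signal were related weakly across the stretches, with Spearman's rho of 0.075 after LmnA RNAi, -0.03 with LmnC targeted and -0.003 with LmnB1 targeted. Without single-library fragments these were 0.044, -0.176 and -0.087.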

How the data were processed

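DamID was measured in 6 libraries, which give 3 maps of 1 Dam-only and 1 fusion library each. Reads were aligned with Bowtie to mm9, per the submitters' processing notes; its version is not given in the sources used here, nor are the counting and the LAD caller. The deposited values are log2 ratios of fusion over Dam-only reads per GATC fragment, and their low values fit 1e-05 added to both before the ratio, plus a constant per map (-0.345, 0.215 and -0.153). A size over 12 marks 0 reads in 1 library (a single-library fragment). Such fragments weigh heavily in a mean, so medians and counts are also given without them.

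The deposited LAD lists were joined on chromosomes 1 to 19, and positions are printed 1-based. Means and SEs over fragments were computed with Python 3.11.15, numpy 2.4.6, pandas 2.3.3 and scipy 1.17.1, and tested on simulated data. The background is 11984 windows of 200 kb, and "centred" means minus each map's median window. Over these windows the centred median difference was -0.24 for LmnA minus LmnC RNAi, -0.23 for LmnA minus LmnB1 RNAi and -0.05 for LmnC minus LmnB1 RNAi. Centring thus did not level the maps window by window. Differences were counted past 0.5. With 1 map per condition there is no test.

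The regions and comparisons were chosen with earlier results of these data known. Regions named are the 3 longest, the 3 on either side of each length limit, the 3 lowest and highest per map, the 3 largest centred differences per pair in each direction and the 3 pairs of neighbours with the shortest LAD between, without regions over 10% fragment-free. Genes and sequences were not used here, since the reference tables are of another build.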

Additional observations from a re-analysis of the deposited data

How the results depend on the processing

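Under the alternatives, 63 values stayed within the spread or within 1.5 times the count as deposited, 42 moved further and 1 was counted as changing sign. The cause of these moves was not tested. Sign was not counted for the middle of a stretch against its ends. That median difference also changed sign, within the spread. It went from 0.028 to -0.009 after LmnA RNAi without single-library fragments and those at the constant. With equal weights it went from -0.037 to 0.049 with LmnC targeted and from -0.033 to 0.081 with LmnB1 targeted. With LmnB1 targeted it was 0.003 over 25 kb pieces. The median signal in the LmnA, LmnC and LmnB1 RNAi maps (-1.75, -3.05 and -2.12) was -1.19, -1.53 and -1.15 without single-library fragments, -1.30, -1.69 and -1.27 without these and those at the constant, -2.25, -4.18 and -3.37 with each fragment weighted the same, and -1.06, -2.48 and -1.77 for stretches outside the LADs of the LmnC and LmnB1 RNAi maps only. Without single-library fragments, and then also without those at the constant, stretches higher by more than 0.5 after LmnA than LmnC RNAi numbered 201 and 247, after LmnA than LmnB1 RNAi 23 and 30, and after LmnC than LmnB1 RNAi 0 and 0; stretches lower after LmnA than LmnB1 RNAi numbered 16 and 21, and after LmnC than LmnB1 RNAi 135 and 194. Centring gave 138 higher and 110 lower for LmnA against LmnC RNAi, 48 and 288 for LmnA against LmnB1 RNAi and 12 and 293 for LmnC against LmnB1 RNAi. With equal weights, 2 were lower after LmnA than LmnC RNAi (2 also with 20 kb trimmed from each end), 516 higher after LmnA than LmnB1 RNAi and 22 higher after LmnC than LmnB1 RNAi. Spearman's rho of length with signal after LmnB1 RNAi, -0.03, was 0.007 with equal weights. Centring moved the share of windows past 0.5 to 12.1% higher and 31.6% lower for LmnA against LmnC RNAi, 9.08% and 32.4% for LmnA against LmnB1 RNAi, and 15.9% and 22.2% for LmnC against LmnB1 RNAi. With 100 kb windows these shares were 75.8% higher and 0.802% lower for LmnA against LmnC RNAi, 8.24% lower for LmnA against LmnB1 RNAi and 4.69% higher for LmnC against LmnB1 RNAi. No paired analysis was possible because each group holds 1 library, and no replicate could be left out. Total reads are unknown, so depth sets no limit that can be given here.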

Other observations

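The longest run of successive stretches of 100 to 500 kb, with no longer or shorter inter-LAD piece of 25 kb or more between them, held 8 of them on chromosome 13 from 17776861 to 27173931 (mm9). The run was picked after its values were seen. The 8 stretches made up 2.09 Mb of a span of 9.40 Mb, and the LADs between them were 169 to 2300 kb long. LADs covered 74.6% of the run after LmnA RNAi, 60.8% with LmnC targeted and 56.7% with LmnB1 targeted, with no share over the autosomes to set beside these. Signal differed widely from one stretch of the run to the next. After LmnA RNAi it ran from -3.44, in the stretch from 23502639 to 23858164, to -0.53, in the neighbour from 24174890 to 24397892. The same neighbours had -4.54 ± 0.23 and -2.17 ± 0.21 (SE) with LmnC targeted and -2.78 ± 0.17 and -1.25 ± 0.19 with LmnB1 targeted, so the first of this pair was the lower in each map. Over the whole run, the lowest and highest after LmnC RNAi were other stretches, from 17776861 to 17902451 (-4.74) and from 20201692 to 20408739 (-1.94), and the same 2 were lowest and highest after LmnB1 RNAi.

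Windows of 20 kb with a high signal inside the stretches were also looked up after their values were seen. With each map centred on its median 200 kb window, the one whose lowest map was highest lay on chromosome 17 from 37245049 to 37265048. As deposited, it had 3.53 after LmnA RNAi, 2.54 with LmnC targeted and 2.30 with LmnB1 targeted (1.64, 0.88 and 1.03 without single-library fragments). The stretch around it, from 36965049 to 37350253 (385.2 kb), had -0.74, -1.24 and -1.08. The next in this centred ranking lay on chromosome 19 from 11936532 to 11956531, with 2.44, 2.06 and 2.02 as deposited. It lay in a stretch from 11836532 to 12114206 (277.7 kb) at -0.66, -1.49 and -0.74. Neither window is part of a deposited LAD.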
